A study of Mus musculus with 12 samples.

Results

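The genes of glycogen metabolism were examined as 8 members chosen by gene symbol from the 24421 entries of the deposited table. They were the 3 glycogen phosphorylases Pygb, Pygm and Pygl, the glycogen synthase Gys1, the branching enzyme Gbe1, the primer protein Gyg, the UDP-glucose pyrophosphorylase Ugp2 and the phosphatase targeting subunit Ppp1r3c. All 8 were present, and all 8 passed the filter on low values (at least 3 libraries with 10 or more normalized counts), as did 15464 genes in total. The libraries came from GFP-positive cells sorted from the cerebellum of Aldh1l1-GFP reporter mice on the C57/BL6J background, in which the Aldh1l1 promoter, active in astrocytes, drives GFP. Both sexes were used, and every group carried the same reporter. The 4 groups were postnatal days P1, P7, P14 and P28, with 3 libraries each and no other treatment. Nothing in the labels says that the libraries of a group came from separate animals, so that the p-values measure only the spread between these samples. The comparisons ask how the transcripts of the glycogen store changed from birth to the juvenile cerebellum.

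Glycogen in the brain is held mainly by astrocytes. Glucose is phosphorylated by hexokinase, moved to glucose 1-phosphate by phosphoglucomutase, activated to UDP-glucose by Ugp2, primed on Gyg, and built into a branched polymer by Gys1 and Gbe1. Phosphorylase, switched on by phosphorylase kinase, releases glucose 1-phosphate again, and targeting subunits such as Ppp1r3c bring protein phosphatase 1 to glycogen, where it activates the synthase and switches off the phosphorylase.

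The promoters of the 3 phosphorylases, which code for the same reaction, and that of Ppp1r3c are printed because these genes followed different courses over age. RefSeq (GRCm38.p6) gave a start site for 8 of 8 members. From the 250 bases before the start site, the stretch printed leaves out bases that GENCODE M21 counts as exon of the gene. CG dinucleotides are in capitals in the phosphorylases, and the E-box letters CACGTG in Ppp1r3c. The Pygb stretch lies at chr2:150786546-150786734 on the plus strand, Pygm at chr19:6384158-6384398 on the plus strand, Pygl at chr12:70227684-70227933 on the minus strand, and Ppp1r3c at chr19:36736654-36736854 on the minus strand.
Pygb: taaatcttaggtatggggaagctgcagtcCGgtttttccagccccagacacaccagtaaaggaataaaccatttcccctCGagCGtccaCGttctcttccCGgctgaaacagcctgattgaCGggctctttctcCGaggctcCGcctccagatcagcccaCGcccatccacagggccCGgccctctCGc
Pygm: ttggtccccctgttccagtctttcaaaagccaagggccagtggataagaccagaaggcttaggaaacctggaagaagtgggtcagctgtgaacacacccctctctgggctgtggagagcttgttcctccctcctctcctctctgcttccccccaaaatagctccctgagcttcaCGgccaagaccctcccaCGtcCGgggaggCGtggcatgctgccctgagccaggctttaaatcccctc
Pygl: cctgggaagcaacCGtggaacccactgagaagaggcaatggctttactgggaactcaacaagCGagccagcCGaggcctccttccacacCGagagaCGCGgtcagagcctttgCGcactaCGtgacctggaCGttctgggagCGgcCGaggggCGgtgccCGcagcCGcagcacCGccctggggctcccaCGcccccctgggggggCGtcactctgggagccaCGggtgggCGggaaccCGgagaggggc
Ppp1r3c: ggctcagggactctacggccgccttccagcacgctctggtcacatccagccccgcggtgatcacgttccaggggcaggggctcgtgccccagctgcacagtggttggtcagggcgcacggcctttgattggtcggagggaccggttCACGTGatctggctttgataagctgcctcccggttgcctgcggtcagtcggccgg
The full 250-base window held 17 CG dinucleotides in Pygb, 4 in Pygm and 20 in Pygl, beside a median of 6 over 32851 RefSeq promoter windows of the same length. CACGTG, searched on both strands, began 104 bases before the start site of Ppp1r3c, and 6.02% of all windows held it. The same letters include ACGTG, the core of a hypoxia element, which 16.6% of windows held. CACGTG was not found in the windows of the other members. These are matches of letters and not sites of binding. The RefSeq start of Pygl lies inside the span of the GENCODE gene, and those of Pygb, Pygm and Ppp1r3c lie at the 5′ end of their genes.

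Reads on genes numbered 11478899 to 14733985 per P1 library, 6399499 to 11328604 per P7 library, 9470510 to 9856910 per P14 library and 7965152 to 10269334 per P28 library. The summed normalized count of 10 astrocyte markers, none of them at 0, ranged from 61511 to 78191 among P1 libraries, from 29311 to 53829 among P7, from 152775 to 189145 among P14 and from 349221 to 408484 among P28 libraries. Aldh1l1 itself, whose promoter drives the reporter, averaged 5008, 1470, 1879 and 2921 normalized counts from the youngest to the oldest age. Markers of other cells were present as well. The 8 oligodendrocyte markers summed to between 1525 and 2370 in P1 libraries, 21699 and 33361 in P7, 311037 and 369681 in P14, and 101890 and 141604 in P28 libraries. The 8 choroid plexus and ependymal markers varied within groups, from 1557 to 110321 at P14 and from 18114 to 183029 at P28. None of the members is in these marker lists, expression of the members in these cells was not measured, and the part of these cells in the results below was not tested. In such bulk samples, fewer cells of a type and less RNA per cell cannot be told apart.

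Pygb, Gys1, Gyg, Ugp2 and Ppp1r3c had their lowest mean at P7, Pygm at P1, and Pygl and Gbe1 at P14. For Ugp2 the means at P7 and P1 were close, at 669 and 677. The Pygl mean at P28 rested on 1 library, and its median was lowest at P28 (4.38, beside 33.7 at P14). From P1 to P7, limma called 3 of the 8 members lower and 0 higher at an adjusted p under 0.05, where 4.24% of all tested genes were lower and 3.47% higher. The 3 were Pygb, Gyg and Ppp1r3c. At an unadjusted p under 0.05, 5 members were lower and 0 higher, and edgeR and DESeq2 likewise called 3 lower and 0 higher. The shares of all genes are those of the adjusted limma test and are not given for these other settings. The astrocyte marker sum was also lower in every P7 library than in any P1 library. P7 replicate 2 was the lowest P7 library for that sum and for Pygb, Gyg, Gys1 and Ppp1r3c, and the highest for the endothelial and the choroid plexus and ependymal markers. From P7 to P14, 4 members rose (Pygb, Pygm, Gyg and Ugp2) and 0 fell, where 10.8% of all genes rose and 10.0% fell. From P14 to P28, 4 rose (Pygb, Pygm, Ugp2 and Ppp1r3c) and 0 fell, where 5.68% of all genes rose and 8.76% fell. In these later steps no member was lower at an unadjusted p under 0.05 in limma, edgeR or DESeq2. Without P28 replicate 2, the count for P14 to P28 became 3 higher and 1 lower, and without P28 replicate 3 it was 5 higher.

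The median log2 fold change of the 8 members was -1.14, 0.63 and 0.86 in the 3 steps, beside 0.037, -0.086 and -0.12 over all tested genes. Over the whole span from P1 to P28, 2 members were higher (Pygm and Ugp2) and 1 was lower (Pygl), where 14.6% of all genes were higher and 20.0% lower. The median of the members was 0.27 in this comparison and that of all genes -0.24. When the libraries were scaled by their totals alone, the median of all genes moved to -0.66. In the moderated F test over the 4 ages, 7 of 8 members were called, where 43.8% of all genes were. Gbe1 was the exception, with an adjusted p of 0.30.

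**Figure D1:**
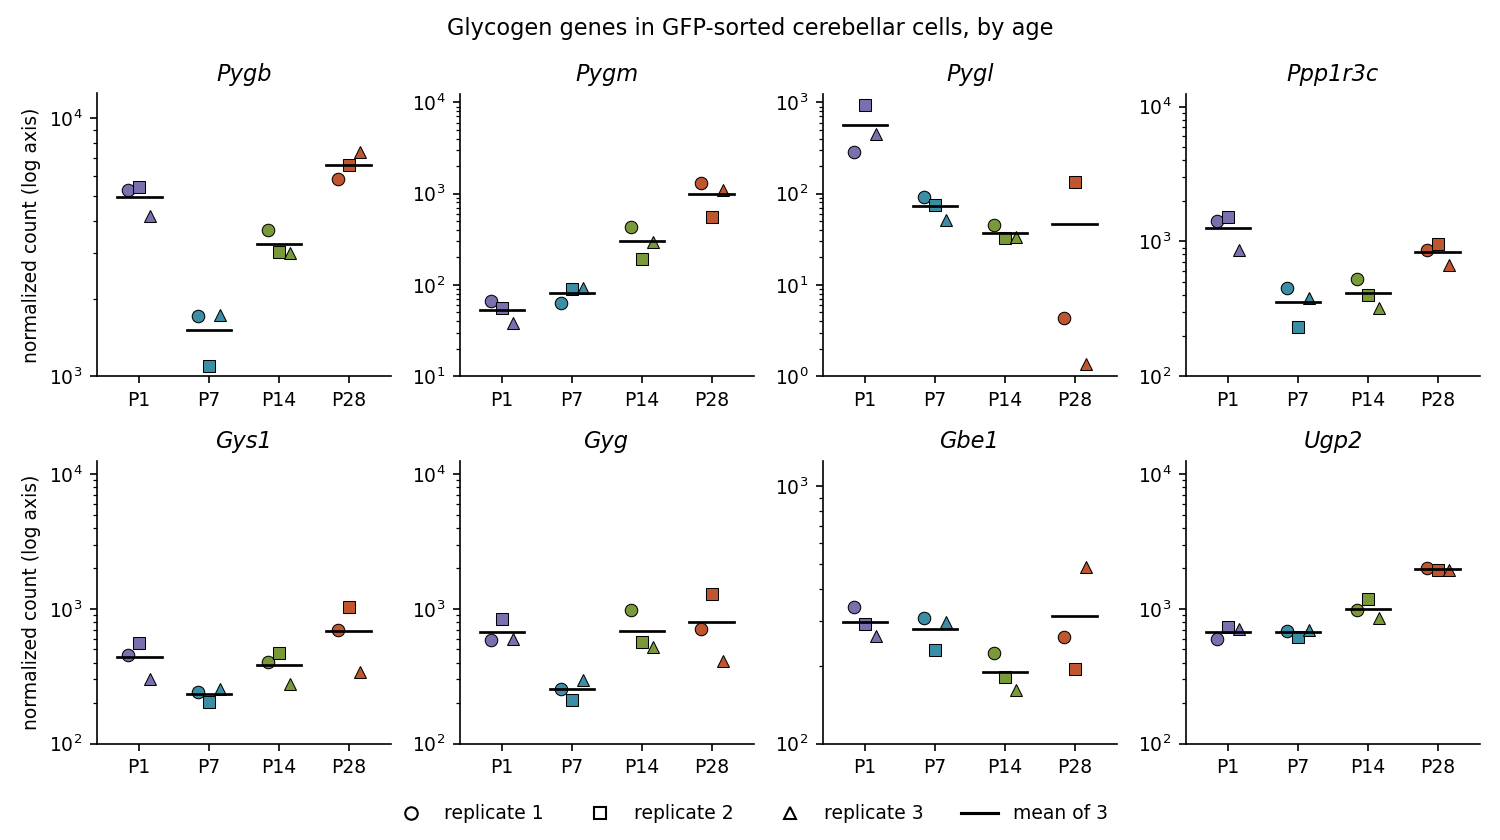
Normalized counts (log axis) of the 8 glycogen genes in each of 12 libraries, by age; symbols mark the replicate and bars the mean of 3 libraries. Pygb and Gyg dip at P7, Ppp1r3c is low at P7 and P14, and Pygm and Ugp2 are highest at P28. Pygl falls from 287 to 942 at P1 to 4.38 and 1.35 in P28 replicates 1 and 3, with 133 in replicate 2.

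**Figure D2:**
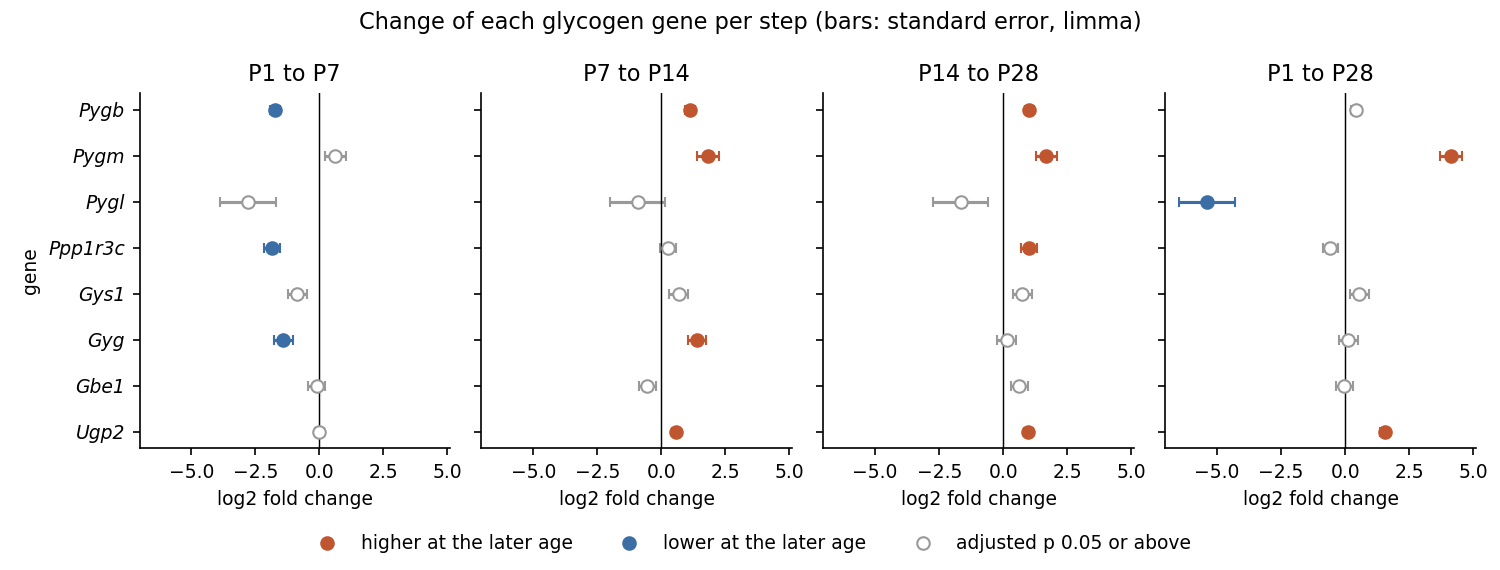
Log2 fold change (later minus earlier age) of each glycogen gene in 4 comparisons, with its standard error from limma; filled points have an adjusted p under 0.05. The P1 to P7 panel holds 3 filled points, all below 0, and the next pair of panels hold 4 each, all above 0.

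Pygb, the brain form of glycogen phosphorylase, lies at chr2:150786735-150831758 on the plus strand of GRCm38. Its normalized counts were 5284, 5400 and 4169 in the P1 libraries, 1719, 1099 and 1727 at P7, 3699, 3040 and 2999 at P14, and 5819, 6586 and 7399 at P28. The 4 ages did not overlap. The lowest group was P7, followed by P14, P1 and P28. Pygb fell by 1.73 on the log2 scale from P1 to P7 (SE 0.19, adjusted p = 9.94e-05) and then rose by 1.12 from P7 to P14 (adjusted p = 7.14e-04), with a further rise of 1.02 to P28 (adjusted p = 0.00378). Although its P28 libraries were all above those of P1, the difference of 0.42 did not pass the test (adjusted p = 0.10). P14 stayed below P1, with a log2 fold change of -0.61 (adjusted p = 0.0358), a call that was lost without P1 replicate 1 or 2 or without P14 replicate 2 or 3, with adjusted p of up to 0.12. The same call was lost with TMM scaling (-0.57, adjusted p = 0.0506) and in edgeR with TMM (-0.57, adjusted p = 0.0534).

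Pygm, the muscle form, lies at chr19:6384399-6398459 on the plus strand. Its normalized counts were 65.8, 55.7 and 38.6 in the P1 libraries, 63.7, 90.3 and 91.5 at P7, 428, 190 and 296 at P14, and 1308, 558 and 1099 at P28. P1 and P7 overlapped, while every P14 library was above those of P7 and every P28 library above those of P14. The change from P1 to P7 was 0.62 (SE 0.42, adjusted p = 0.49). Pygm rose by 1.83 from P7 to P14 (adjusted p = 0.00575), and P28 was above P14 by 1.68 (adjusted p = 0.0163). The last step lost its call without P14 replicate 2 (adjusted p = 0.0655). From P1 to P28 the rise was 4.13 (adjusted p = 4.55e-06). The oligodendrocyte marker sum was also higher in every P14 library than in any P7 library, and its P28 values lay between those of P7 and P14. The part of either cell type in the Pygm values was not tested.

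Pygl, the liver form, lies at chr12:70190811-70231488 on the minus strand and ran the other way. It was at 287, 942 and 452 normalized counts in the P1 libraries, 92.4, 75.9 and 51.2 at P7, 45.5, 32.8 and 33.7 at P14, and 4.38, 133 and 1.35 at P28. The P28 values stood on 3, 113 and 1 reads, so that 1 library decided the mean of that age. P28 replicate 2, which was above all P7 and P14 libraries, also had the highest sum of choroid plexus and ependymal markers of the 12 libraries, 183029. P28 replicate 1 had a sum of 105220 beside 3 reads of Pygl. At P14 the highest sum and the highest Pygl value were both in replicate 1, while at P7 they were in replicates 2 and 1. In the P1 libraries, where Pygl was highest, the sums were 1723 to 4010. The part of these cells in the Pygl value of P28 replicate 2 was not tested.

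The decline of Pygl from P1 to P28 was -5.38 on the log2 scale (SE 1.09, adjusted p = 0.00168), and from P1 to P14 it was -3.71 (adjusted p = 0.0256). The 3 single steps did not pass the test (adjusted p of 0.15, 0.62 and 0.33). Without P28 replicate 2, the spread of Pygl was smaller. The fold change from P14 to P28 was then -3.41 (adjusted p = 0.00420), that from P1 to P28 -7.13, and the step from P1 to P7 was called at its value of -2.79 (adjusted p = 0.00675). The P1 to P14 decline was called in 17 of 22 alternatives and lost without P1 replicate 2 or 3 or without any 1 of the P14 libraries, with adjusted p of up to 0.098.

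Levels of different genes can be set side by side only per length of transcript. Per kilobase of exon, Pygb had the highest level of the 8 members at every age, with means of 1030 ± 141, 315 ± 74.9, 675 ± 81.7 and 1373 ± 164 from P1 to P28 in order of age (SD, n = 3). Pygm was 8th at P1 (16.6 ± 4.27) and 4th at P28 (307 ± 120). Pygl was 6th at P1 (81.3 ± 49.5) and 8th at the later ages. Summed over the 3 forms, phosphorylase transcripts per kilobase were 1127 ± 169, 351 ± 72.3, 775 ± 116 and 1687 ± 170 at P1, P7, P14 and P28.

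Within that sum, the share of Pygm went from 1.46% ± 0.263 (P1) through 7.58% ± 2.73 (P7) and 11.97% ± 3.15 (P14) to 18.1% ± 7.02 (P28; SD, n = 3), and the ages differed in an exact permutation test over 369600 assignments of the 12 libraries (p = 0.00344, where the smallest p possible is 6.49e-05). P7, P14 and P28 overlapped with their neighbours in this share, while P1 overlapped with none. Pygb made up 91.5% ± 3.37, 89.3% ± 3.37, 87.3% ± 3.16 and 81.4% ± 6.43 in order of age. Over the 4 ages its share did not pass the same test (exact permutation p = 0.0803), and it passed without P28 replicate 2 (exact permutation p = 0.0158). The share of Pygl was 7.08% ± 3.56, 3.14% ± 1.15, 0.696% ± 0.0270 and 0.429% ± 0.70 in order of age. These shares do not depend on how libraries were scaled. They do depend on the length used, most of all for Pygl, whose exons cover 6895 bases while its longest coding transcript has 2992. With the longest coding transcripts, or without length, the mean Pygb share did not fall from P1 to P14 and was lowest at P28.

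**Figure D3:**
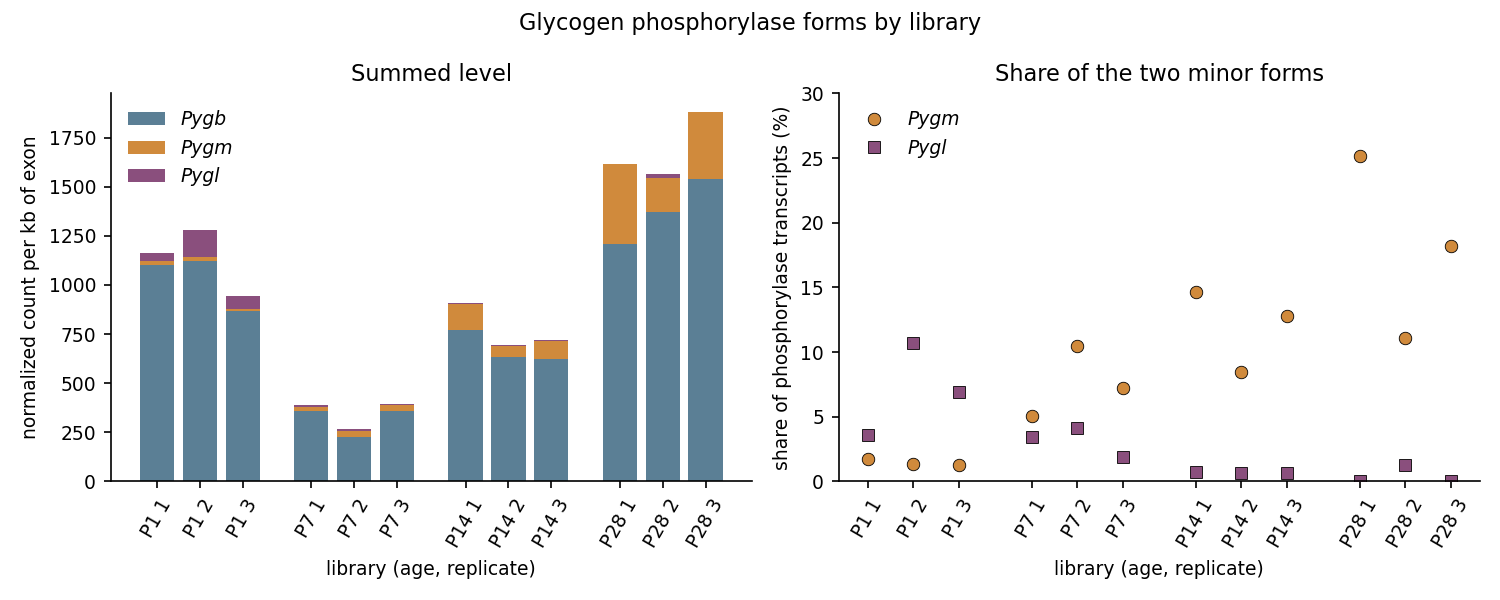
Left, summed phosphorylase level per library (normalized count per kilobase of exon, bars from 0, stacked by form); right, percent share of Pygm and Pygl per library. The Pygm share lies between 1.27% and 1.76% at P1 and between 11.1% and 25.1% at P28, and Pygl goes from between 3.58% and 10.7% at P1 to at most 1.24% at P28.

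Gys1, the glycogen synthase found outside the liver, lies at chr7:45434844-45456619 on the plus strand. Its normalized counts were 456, 554 and 304 in the P1 libraries, 241, 203 and 254 at P7, 405, 469 and 277 at P14, and 693, 1034 and 338 at P28. The P7 libraries were below all others, and the remaining ages overlapped. None of the consecutive steps passed the test, with log2 fold changes of -0.87, 0.69 and 0.73 (SE 0.37, adjusted p of 0.20, 0.22 and 0.20). P7 and P28, the lowest and highest ages, differed by 1.42 (adjusted p = 0.00750), or by 0.93 (adjusted p = 0.0534) with libraries scaled by their totals alone.

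At P28, replicate 2 was the highest and replicate 3 the lowest library for Gys1, and the choroid plexus and ependymal marker sum had the same order (105220, 183029 and 18114 in replicates 1, 2 and 3). The orders also matched at P1. At P7 the sum was highest in replicate 2, where Gys1 was lowest, and at P14 the sum was highest in replicate 1 and Gys1 in replicate 2. The part of these cells in the Gys1 values was not tested. Without P28 replicate 3, Gys1 was higher at P28 than at P14 by 1.17 (adjusted p = 0.0258) and than at P1 by 0.99 (adjusted p = 0.0268). Without P28 replicate 2, the same differences were 0.37 (adjusted p = 0.51) and 0.19 (adjusted p = 0.71). Exons of Gys1 overlap by 310 bases with Ruvbl2 on the opposite strand, and the source of the reads in that stretch is uncertain because the counting is not stated to use strand. The log2 ratio of Gys1 to summed phosphorylase per kilobase averaged -3.66 ± 0.221, -2.84 ± 0.156, -3.30 ± 0.419 and -3.69 ± 0.957 in order of age (SD, n = 3). It did not differ beyond the spread over ages (exact permutation p = 0.257), although it passed the threshold without P28 replicate 2 (exact permutation p = 0.0430).

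Gyg, glycogenin, which primes the polymer, lies at chr3:20122084-20155317 on the minus strand. It was at 588, 835 and 601 normalized counts in the P1 libraries, 254, 209 and 295 at P7, 973, 565 and 523 at P14, and 715, 1293 and 410 at P28. The P7 libraries were again below all others, and P1, P14 and P28 overlapped. Gyg fell by 1.41 on the log2 scale from P1 to P7 (SE 0.36, adjusted p = 0.0276) and rose by 1.40 from P7 to P14 (adjusted p = 0.0129), and its P28 level was above that of P7 by 1.53 (adjusted p = 0.00420). The fall lost its call without any 1 of the 6 libraries compared (adjusted p from 0.0531 to 0.125), and the rise without P7 replicate 2 or P14 replicate 1 (adjusted p of 0.0530 and 0.0691). As for Gys1, P28 replicate 2 was the highest and replicate 3 the lowest library.

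Gbe1, the branching enzyme, lies at chr16:70313949-70569716 on the plus strand. Its normalized counts were 339, 292 and 261 in the P1 libraries, 307, 232 and 295 at P7, 225, 182 and 162 at P14, and 259, 195 and 483 at P28. P14 was below P1 and P7 in every library, and P28 overlapped with each of the other ages. No comparison passed the test. The log2 fold changes were -0.10, -0.55 and 0.62 in the 3 steps (SE 0.34, adjusted p of 0.94, 0.29 and 0.23) and -0.03 from P1 to P28 (adjusted p = 0.96). In contrast to Gys1 and Gyg, its highest P28 library was replicate 3.

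Ugp2, which makes the UDP-glucose used by the synthase, lies at chr11:21321138-21371201 on the minus strand. Its normalized counts were 595, 729 and 706 in the P1 libraries, 689, 618 and 701 at P7, 976, 1181 and 852 at P14, and 2004, 1943 and 1943 at P28. P1 and P7 overlapped, and P14 and then P28 stood above them without overlap. The P1 to P7 difference was -0.01 (SE 0.17, adjusted p = 0.99). Ugp2 rose by 0.57 from P7 to P14 (adjusted p = 0.0303) and by another 0.98 to P28 (adjusted p = 0.00297), for a total of 1.54 from P1 to P28 (adjusted p = 1.32e-05). The first rise was 0.32 (adjusted p = 0.22) with libraries scaled by their totals alone, and was also lost without any 1 of the P7 libraries or without P14 replicate 1 or 2 (adjusted p of up to 0.13). The later rise and the total were called in all 23 alternatives.

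Ppp1r3c, also known as PTG (protein targeting to glycogen), lies at chr19:36731731-36736653 on the minus strand. It had 1409, 1515 and 862 normalized counts in the P1 libraries, 451, 230 and 377 at P7, 530, 399 and 321 at P14, and 868, 951 and 669 at P28. P7 and P14 overlapped with each other and were below all P1 and P28 libraries, and P1 and P28 overlapped. Ppp1r3c fell by 1.85 on the log2 scale from P1 to P7 (SE 0.30, adjusted p = 0.00163), did not pass the test from P7 to P14 (0.26, adjusted p = 0.61) and rose by 1.01 from P14 to P28 (adjusted p = 0.0369). The late rise was called in 15 of 23 alternatives. It was lost without P14 replicate 2 or 3 (adjusted p of 0.0893 and 0.14), without P28 replicate 1 or 2 (0.0662 and 0.0808), by a narrow margin without P1 replicate 1 or P7 replicate 3 (0.0509 and 0.0511), and with libraries scaled by their totals (0.77, adjusted p = 0.0897). P28 did not differ from P1 beyond the spread in the main fit (-0.58, adjusted p = 0.15). With libraries scaled by their totals alone, P28 was called lower than P1 (-1.01, adjusted p = 0.0134).

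Between ages that do not follow each other, P14 was above P1 for 2 members and below it for 3, where 10.4% of all genes were higher and 9.99% lower. In edgeR with TMM, P14 was below P1 for 2 members, and Pygb was not called. Pygm was higher by 2.45 (adjusted p = 7.51e-04) and Ugp2 by 0.56 (adjusted p = 0.0346), and Ppp1r3c changed by -1.58 (adjusted p = 0.00164), beside the falls of Pygb and Pygl given above. The Ugp2 call was lost in 9 of 23 alternatives, among them those without P1 replicate 1 or 3, P7 replicate 1 or 3, or P14 replicate 1 or 2 (adjusted p of up to 0.14). At P28, 6 members were higher than at P7 and 0 lower, where 16.2% of all genes were higher and 23.0% lower. They were Pygb (2.15, adjusted p = 1.05e-06), Pygm (3.51, adjusted p = 1.58e-05), Ugp2 (1.55, adjusted p = 9.82e-06), Ppp1r3c (1.27, adjusted p = 0.00399), Gyg and Gys1. Lower at P28 at an unadjusted p under 0.05 was 1 member in limma (Pygl) and 0 in edgeR and DESeq2, and without P28 replicate 2 Pygl was called lower.

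The course of the other pathway genes was read from 46 genes in 7 lists, of which 44 passed the filter (Gys2, the liver synthase, and Ppp1r3a, the muscle targeting subunit, did not). From P1 to P7, 2 were higher and 3 lower, where 3.47% of all tested genes were higher and 4.24% lower. From P7 to P14, 9 were higher and 2 lower (10.8% and 10.0% of all genes). The last step gave 6 and 2 (5.68% and 8.76% of all genes), and the whole span 10 and 5 (14.6% and 20.0% of all genes). Their median log2 fold change was -0.14, 0.17, 0.12 and 0.19 in these 4 comparisons.

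Of the 6 tested genes of glucose entry, 4 were higher at P14 than at P7 and 0 were lower. In this step, 10.8% of all tested genes were higher and 10.0% lower. Slc2a1, the glucose transporter of endothelium and astrocytes, rose by 2.00 (adjusted p = 0.00600) from 803, 1769 and 689 normalized counts at P7 to 4284, 3398 and 4286 at P14. Endothelial markers summed to 1931, 8082 and 1146 in the same P7 libraries and to 3855, 4289 and 3641 at P14, and Slc2a1, like these markers, was highest in replicate 2 at P1 and at P7. At P28 Slc2a1 was highest in replicate 2 (7348) and the endothelial markers in replicate 3 (3419). Hk1, the main hexokinase of the brain, rose by 1.41 (adjusted p = 0.00227). Hk2, an inducible hexokinase, went from 148, 174 and 162 at P1 through 388, 624 and 301 at P14 to 886, 954 and 1102 at P28, without overlap between these ages. Its rise from P1 to P28 was 2.59 (SE 0.29, adjusted p = 1.14e-05). Pgm2 fell by 1.47 on the log2 scale from P1 to P7 (adjusted p = 0.00217) and rose by 1.21 from P7 to P14 (adjusted p = 0.00290). Pgm2l1, which makes glucose 1,6-bisphosphate, moved against Pgm2 in the first step and rose by 1.2 (adjusted p = 0.0262), a call lost without 5 of the 6 libraries compared.

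Among the other genes of breakdown, 2 of 3 (Gaa and G6pc3) were higher at P28 than at P1 and the third (Slc37a4) was not called. Over the same span, 14.6% of all tested genes were higher and 20.0% lower. Gaa, the acid glucosidase that degrades glycogen in lysosomes, was lowest at P7 and highest at P28 by its means. It was at 1149, 1232 and 776 normalized counts in the P1 libraries, 351, 329 and 481 at P7, 1154, 1087 and 788 at P14, and 1444, 1931 and 2480 at P28. Gaa fell by 1.43 on the log2 scale from P1 to P7 (adjusted p = 0.00303), rose by 1.38 from P7 to P14 (adjusted p = 0.00137) and rose by 0.93 from P14 to P28 (adjusted p = 0.0255). The last of these calls was lost without P14 replicate 3 or P28 replicate 3 (adjusted p of 0.11 and 0.0738). The Gaa difference between P1 and P28 was 0.88 (adjusted p = 0.0152), and its call was lost with library totals alone (0.45, adjusted p = 0.15) and without P1 replicate 3 or P28 replicate 3 (adjusted p of 0.0782 and 0.0559). G6pc3, a glucose 6-phosphatase of many tissues, was higher at P28 than at P1 by 1.27 (adjusted p = 0.00875). With libraries scaled by their totals alone the G6pc3 difference was 0.83 (adjusted p = 0.0578).

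Phosphorylase kinase activates phosphorylase, and its subunits did not move as one. Relative to P1, P28 was higher for 3 of the 5 genes and lower for 1, where 14.6% of all genes were higher and 20.0% lower. Phkg1, a catalytic subunit, had 78.1, 67.9 and 26.5 normalized counts in the P1 libraries, 119, 26.2 and 56.6 at P7, 504, 424 and 600 at P14, and 799, 672 and 709 at P28. P1 and P7 overlapped, and all P14 libraries were above them. Phkg1 rose by 3.14 from P7 to P14 (SE 0.51, adjusted p = 5.08e-04), and its P1 to P28 rise of 3.77 (adjusted p = 6.38e-05) was called in all 23 alternatives. Phka1, the regulatory subunit of muscle and brain, rose by 1.39 from P7 to P14 (adjusted p = 2.80e-04) and by 1.60 from P1 to P28 (adjusted p = 4.80e-05), and Phkb by 0.98 from P1 to P28 (adjusted p = 0.00141). Phka2, the liver form of the regulatory subunit, was at 452, 430 and 451 at P1 and at 292, 223 and 75.7 at P28, a difference of -1.38 (adjusted p = 0.0230). The Phka2 call was lost without any 1 of the P1 libraries or without P28 replicate 3, where the value was -0.80 (adjusted p = 0.0675).

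Of the 8 tested genes of protein phosphatase 1 and its other glycogen targeting subunits, 2 rose and 1 fell over the span from P1 to P28, where 14.6% of all genes rose and 20.0% fell. Ppp1r3d rose by 2.33 (adjusted p = 0.0193) from 24.6, 45.7 and 11.4 at P1 to 94.99, 308 and 62.2 at P28, and the call was lost without P1 replicate 1 or 3 or P28 replicate 2 (1.67, adjusted p = 0.0678, without the latter). Ppp1r3f was low throughout, with 63 reads over the P1 libraries, 87 at P14 and 2 at P28. Scaled to depth, its P28 level was 2.84% of that at P14 (95% counting interval 0.339% to 10.6%), and limma called it lower (adjusted p = 0.00578). Per kilobase, Ppp1r3c was 2nd among the 8 members at P1 and 5th at P28.

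The kinases that act on glycogen synthase and the subunits of AMPK, a sensor of energy state, held 2 lower genes of 10 and 0 higher from P1 to P28 in limma, where 20.0% of all genes were lower and 14.6% higher. At an unadjusted p under 0.05, 2 were higher, and DESeq2 and edgeR called 1 higher. Gsk3b changed by -0.47 (adjusted p = 0.0248) and Prkab1 by -1.45 (adjusted p = 0.0226). The call for Prkab1 was lost without P1 replicate 1 or 3 (adjusted p of 0.0918 and 0.0721). The 3 genes tied to Lafora disease and glycogen quality (Epm2a, Nhlrc1 and Stbd1) gave 0 calls in limma, edgeR and DESeq2 in the 3 steps and from P1 to P28, and 0 at an unadjusted p under 0.05. With 3 genes, 0 calls is not far from the shares of all genes just given for P1 to P28. Stbd1 was near the floor, with 2, 0 and 3 reads at P14 and 32, 0 and 0 at P28. Nhlrc1 was at 42.4, 228 and 36.5 normalized counts at P28, where 1 library set the spread. Between ages that do not follow each other, DESeq2 called 1 of them higher from P7 to P28, and limma had 1 lower (Stbd1) at an unadjusted p under 0.05 from P1 to P14.

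Receptors that signal to astrocyte glycogen through cAMP changed in different directions. Adrb1, the beta-1 adrenergic receptor for noradrenaline, was at 31.4, 37.1 and 62.8 at P1 and at 136, 258 and 137 at P28, a rise of 1.98 (adjusted p = 0.0158) that was lost without P1 replicate 1 (1.78, adjusted p = 0.0671). Vipr2, a receptor for vasoactive intestinal peptide, had 203, 220 and 278 reads in the P1 libraries and 0, 1 and 0 at P28. Scaled to depth, its P28 level was 0.273% of that at P1 (95% counting interval 0.00690% to 1.53%), and limma called it lower (adjusted p = 7.67e-05). Adcyap1r1, the receptor for the related peptide PACAP, had its lowest mean at P7 and its highest at P1. Its normalized counts were 6859, 5299 and 4668 in the P1 libraries, 1870, 1060 and 1715 at P7, 2539, 3104 and 2256 at P14, and 3722, 4086 and 5516 at P28. Adcyap1r1 fell by 1.88 on the log2 scale from P1 to P7 (adjusted p = 2.13e-04) and rose by 0.79 from P7 to P14 (adjusted p = 0.0235) and by another 0.75 to P28 (adjusted p = 0.0431), the latter called in 11 of 23 alternatives and lost, among others, without any 1 of the P14 libraries, P28 replicate 2 or 3, P1 replicate 2 or P7 replicate 3 (adjusted p of up to 0.15). Vipr1 was higher at P7 than at P1 in all libraries, at 15.1, 60.2 and 31.0 against 1.23, 2.14 and 0 normalized counts (adjusted p = 0.0371), and this call was lost in 10 of 22 alternatives, including those without any 1 of the 6 libraries.

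**Figure D4:**
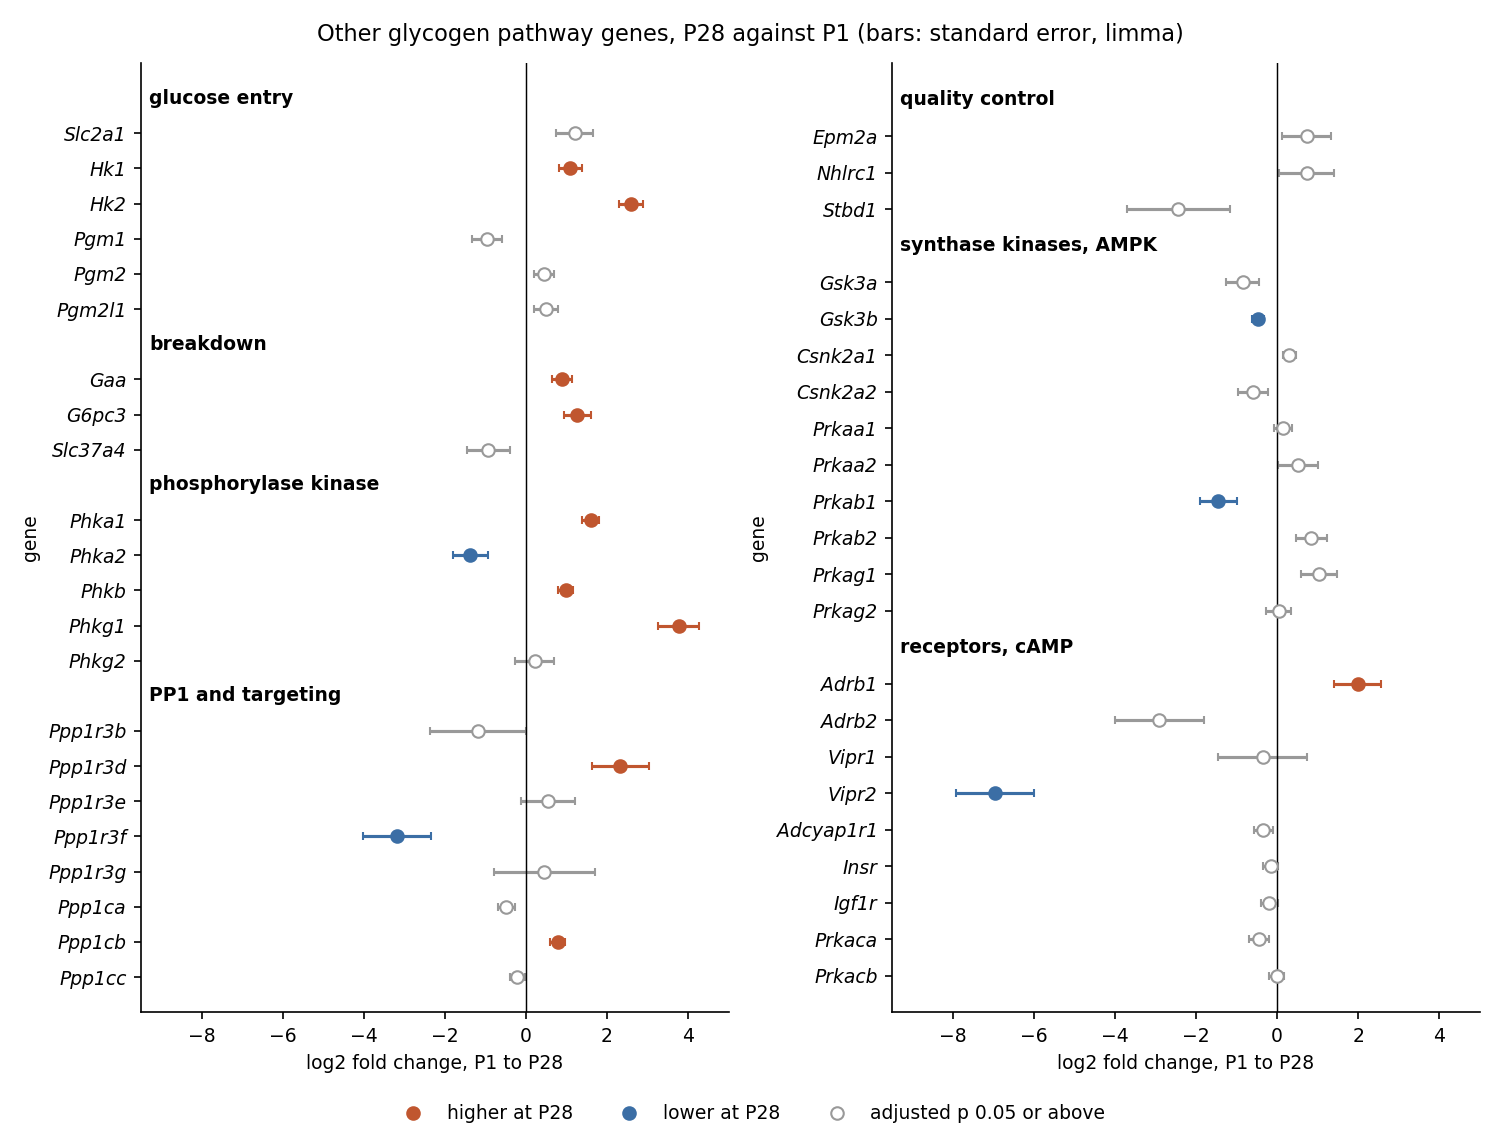
Log2 fold change from P1 to P28 with its standard error (limma) for the 44 tested genes of 7 glycogen pathway lists; filled points have an adjusted p under 0.05. Filled points above 0 number 10, among them Phkg1 at 3.77 and Hk2 at 2.59, and those below 0 number 5, with Vipr2 at -6.96 farthest from 0, a value that rests on 1 read at P28 and depends on the pseudocount.

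The genes whose course over the 12 libraries was most like that of a member were sought among 10212 tested genes with a mean of at least 100, by the root mean square difference of log2(normalized count + 1) after centring each gene. This distance is given as a description. Nearest to Pygb was Pgm2 (0.17), followed by Spon1 (0.18) and Oat (0.20), while Pygb itself varied by 0.83 on the same scale. Pgm2 averaged 594, 213, 488 and 794 normalized counts in order of age. Ugp2 lay nearest to Prdx1 (0.15), Tcp11l1 (0.16) and Kdsr (0.16). The nearest to Ppp1r3c were Adgrg1 (0.25), Aldh1l1 (0.27) and Timp3 (0.29). Ppp1r3c thus had the gene whose promoter drives the sorting reporter as its second nearest of 10212. For Gyg the nearest were Wnt7a (0.29), Plcd4 (0.30) and Csdc2 (0.31), and for Gys1 they were Mcur1 (0.26), Os9 (0.26) and 2610035D17Rik (0.27). Gbe1 was nearest to Gatad2a (0.20), Ubap2l (0.21) and Sema4b (0.21), with a spread of its own of only 0.41. Matches were looser for the minor phosphorylases. Pygm lay at 0.43 from Plekho2, 0.48 from Chchd10 and 0.49 from Qdpr, and Pygl at 0.90 from Igf2bp2, 0.98 from Tenm3 and 1.07 from Mest. Igf2bp2 averaged 540 at P1 and 11.97 at P28.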

How the data were processed

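GFP-positive cerebellar cells were sorted, and libraries were made from total RNA with the Trio RNA-Seq kit and sequenced with paired ends. The authors aligned reads with STAR (mm10), made gene counts on UCSC transcripts using GenomicAlignments, and applied DESeq2 normalization. The submitters' processing notes name STAR 2.5.0a and DESeq2 1.30.1, and whether counting used strand is not given in the sources used here. The values the authors deposited are a signal, counts divided by 1 size factor per library, called normalized counts. All 12 column names contain P28, so ages rest on the labels. Whole reads were recovered for 100% of 199257 values (tolerance 0.1 read) and gave the depth and the count tests. Within groups, all 12 pairs of libraries differed by more than sampling noise.

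The tests were first designed for raw counts, and as the values are normalized the main test was limma (3.58.1, R 4.3.3) on log2(normalized count + 1), with a mean per age over 12 libraries, a variance trend, and Benjamini-Hochberg adjustment over 15464 genes, with calls at an adjusted p under 0.05. Fold changes on this scale understate changes of low genes. edgeR (4.0.16, quasi-likelihood) and DESeq2 (1.42.0) on recovered reads were alternatives, as were other pseudocounts, filters and scalings, the replicate number as a block, and leaving out each library. Phosphorylase shares used the exon length of GENCODE M21 (GRCm38, the same build as mm10), with an exact permutation test of the F ratio. Counting intervals cover counting error only. The tests were checked on simulated data.

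The members and lists were chosen with earlier results of these data known. Genes named were the 8 members, pathway genes called with an absolute log2 fold change over 1 in a step or from P1 to P28, and the 3 nearest genes of each member. Phkb and Gsk3b, called with smaller changes, the uncalled Slc37a4, Epm2a, Nhlrc1 and Stbd1, and the untested Gys2 and Ppp1r3a were named after their values were seen. Protein sequences were not used here. Results of 1 further gene are not reported here, and the pathway counts leave it out.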

Additional observations from a re-analysis of the deposited data

How the results depend on the processing

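Of 25 called fold changes of members, 16 held in every alternative, 0 changed direction, and 45 of 573 values fell short of the threshold. Of 32 called fold changes among the pathway genes named for a change of over 1, 15 held throughout and 0 changed direction. With only the ages compared in the fit, 5 members were called from P1 to P7 and 2 from P14 to P28, and 9 and 1 pathway genes. Shares of all genes are given for the main fit only, so counts under other settings have no such share beside them. A threshold of an unadjusted p under 0.05 with a log2 fold change over 0.75 gave 5 members from P1 to P7. Leaving out 1 library gave 2 to 4 members from P7 to P14 (2 without P7 replicate 2 or P14 replicate 1), 2 to 5 from P14 to P28 (2 without P14 replicate 2), 3 to 6 pathway genes from P1 to P7 and 3 to 10 from P14 to P28 (3 without P14 replicate 3).

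Changes of direction were limited to values that were not called. Scaling by library totals alone turned Pygb from P1 to P28 to -0.018, Gyg from P14 to P28 to -0.10 and from P1 to P28 to -0.32, and Ugp2 from P1 to P7 to 0.046. Pygl from P14 to P28 became 0.33 in edgeR with either scaling and 0.32 in DESeq2. Gbe1 from P1 to P28 became 0.0028 with TMM, 0.097 and 0.068 in edgeR and 0.068 in DESeq2. Without single libraries, Gbe1 ranged from -0.19 to 0.025 from P1 to P7 and from -0.40 to 0.26 from P1 to P28, Gyg from -0.29 to 0.54 from P14 to P28 and from -0.30 to 0.53 from P1 to P28, Ugp2 from -0.10 to 0.044 from P1 to P7, and Ppp1r3c from -0.017 to 0.47 from P7 to P14. The Pygb share at P28 minus that at P1 ranged from -13.1 to -6.72 percentage points without single libraries. In order of age, the share was 86.4%, 87.5%, 87.7% and 82.4% with the longest transcript. Without length it was 89.2%, 90.3%, 90.6% and 86.4%. The ratio of Gys1 to phosphorylase at P28 minus that at P1, -0.035, was 0.068 with the longest transcript and 0.089 without length, and -0.45 to 0.49 without single libraries. The cause of these changes was not tested.

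Libraries of the same replicate number were related only weakly. Their deviations from the means of their ages correlated at -0.029 to 0.14, with a median of 0.031. Of the 12 libraries, 9 correlated best with one of their own number. With the replicate block, 3, 4, 4 and 3 members were called in the 3 steps and from P1 to P28, and Ugp2 from P1 to P14 was no longer called (0.56, adjusted p = 0.0502), nor were Vipr1 from P1 to P7 (adjusted p = 0.0572) and Adcyap1r1 from P14 to P28 (adjusted p = 0.0548). Among the tested genes named, depth limits Pygl, Ppp1r3f, Stbd1, Vipr1 and Vipr2 most, whose lowest libraries held 3 reads or fewer.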
